A study of Mus musculus with 4 samples.

Results

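The 9 genes described here encode ligands of the epidermal growth factor (EGF) family: Areg (amphiregulin), Ereg (epiregulin), Epgn (epigen), Btc (betacellulin), Hbegf (heparin-binding EGF-like growth factor), Tgfa (transforming growth factor alpha), Egf (epidermal growth factor), Nrg1 and Nrg2 (neuregulins). They were taken by symbol from the 52636 genes listed for each library, and all 9 were found. Their transcripts were followed in single epithelial cells of the mouse mammary gland, across the classes of cells and across 4 libraries that cross 2 Esr1 genotypes with 2 treatments.

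The libraries were made from EpCAM-positive cells sorted from mammary glands, with transcripts tagged by unique molecular identifiers (UMIs) at their 3′ ends. All mice were raised to 6 months of age and carried pellets of estradiol and progesterone, the controls included. The Y541S giredestrant group carried the Y541S change of the estrogen receptor (Esr1) and received giredestrant, an oral antagonist and degrader of that receptor, at 30 mg/kg each day for 4 days. The Y541S vehicle group carried the same change and received vehicle for 4 days. The wild-type giredestrant and wild-type vehicle groups received the same doses with an unaltered receptor. Each group is 1 library. The number of mice behind a library and the zygosity of Y541S are not given in the sources used here.

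EGF family ligands are made as membrane-bound precursors that proteases such as ADAM17 release, and they act on neighbouring cells through the receptors EGFR, ERBB3 and ERBB4, often paired with ERBB2. In the mouse mammary gland amphiregulin is known as a target of the estrogen receptor in hormone-sensing luminal cells, and it carries the estrogen signal to other cells during ductal growth at puberty. Neuregulin 1 is known in that tissue as a product of basal cells that acts on ERBB receptors of luminal cells.

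Cells were kept from 1000 UMIs and 500 genes upward and up to a mitochondrial share of 15%. That left 8622 cells for Y541S giredestrant, 7217 for Y541S vehicle, 3029 for wild-type giredestrant and 7082 for wild-type vehicle. The median UMIs per kept cell were 6268 for Y541S giredestrant, 15290 for Y541S vehicle, 21927 for wild-type giredestrant and 10868 for wild-type vehicle, so depth differed between the groups compared. Classes were set by gene rules. Hormone-sensing cells had 5 or more UMIs of Esr1, Prlr and Foxa1 together per 10000 and fewer than 3 of Krt14. Mixed cells met the same receptor rule with 3 or more UMIs each of the keratins Krt14 and Krt6a per 10000 and fewer than 5 of the smooth muscle actin gene Acta2. Secretory cells had 10 or more UMIs of Wfdc18, Csn3, Elf5 and Kit together, and basal cells had 20 or more of Acta2, Myh11, Mylk and Tagln together.

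Hormone-sensing cells numbered 1520 in Y541S giredestrant, 2180 in Y541S vehicle, 1172 in wild-type giredestrant and 677 in wild-type vehicle. Mixed cells numbered 731 in the Y541S giredestrant library, 1 in Y541S vehicle, 0 in wild-type giredestrant and 2 in wild-type vehicle, so they could not be compared between libraries. Of the mixed cells' markers outside the rules, 5 of 7 hormone-sensing, 3 of 8 secretory, 6 of 8 basal and 4 of 4 common luminal markers stood at 10 or more CPM (UMIs of a gene per 1000000 UMIs of the class). Summed, the hormone-sensing markers stood at 421 CPM, the secretory markers at 435 CPM and the basal markers at 926 CPM in mixed cells. In hormone-sensing cells of that library these sums were 1427, 335 and 165 CPM. The basal markers summed to 3804 CPM in basal cells of that library. The basal markers below 10 CPM in mixed cells were the muscle gene Cnn1 and the oxytocin receptor gene Oxtr. Cnn1 stood at 2.08 CPM in mixed cells and at 516 CPM in basal cells of that library, and Oxtr at 0.139 CPM against 57.7 CPM. The source label names mature luminal cells, while the basal rule held 44.6% of the Y541S giredestrant cells, 43.2% of the Y541S vehicle cells, 33.9% of the wild-type giredestrant cells and 69.4% of the wild-type vehicle cells. Between 90 and 213 cells of a library met the rules of more than 1 class. Pairs of libraries shared 7 to 23 cell barcodes.

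The 4 ligand genes Epgn, Ereg, Areg and Btc lie next to each other on chromosome 5 (GRCm38), within 376 kb that hold 4 protein-coding genes in the annotation. Epgn runs from 91027464 to 91035215, Ereg from 91074622 to 91093646 and Areg from 91139599 to 91148432, all on the plus strand. Btc runs from 91357261 to 91402994 on the minus strand. Nrg1 spans 1069479 bases of chromosome 8, Tgfa lies on chromosome 6 from 86195223 to 86275719, and Egf on chromosome 3 from 129677565 to 129755316. The promoters of Areg and Epgn, which lie on either side of Ereg, are shown because both genes were higher in hormone-sensing cells than in secretory and basal cells, while their levels varied differently between libraries. Both windows run from 250 bases before to 50 after the start site in the RefSeq table of GRCm38.p6, on the plus strand, at chr5:91139349-91139648 for Areg and chr5:91027267-91027566 for Epgn. Capitals mark the full cyclic AMP response element, TGACGTCA.
Areg: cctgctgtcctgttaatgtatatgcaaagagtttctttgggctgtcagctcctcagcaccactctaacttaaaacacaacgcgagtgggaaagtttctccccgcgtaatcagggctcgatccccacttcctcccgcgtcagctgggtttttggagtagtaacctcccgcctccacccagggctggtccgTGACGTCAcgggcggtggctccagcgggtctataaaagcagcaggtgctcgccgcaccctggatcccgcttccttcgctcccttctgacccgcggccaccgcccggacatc
Epgn: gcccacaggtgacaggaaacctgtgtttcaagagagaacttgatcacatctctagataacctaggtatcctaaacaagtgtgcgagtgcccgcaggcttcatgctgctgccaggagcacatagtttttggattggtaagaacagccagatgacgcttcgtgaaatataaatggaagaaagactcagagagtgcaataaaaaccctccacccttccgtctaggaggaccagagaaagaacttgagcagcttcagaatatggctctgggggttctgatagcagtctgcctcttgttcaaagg
The Areg window held the cyclic AMP response element 61 bases before the start site, a match found in 1.79% of 32851 promoter windows when both strands are read, and a TATA box (TATAAA) 31 bases before it. The Epgn window held a TATA box 86 bases before the RefSeq start site and no cyclic AMP response element. That start site lies downstream of 91027464, where the gene begins in the annotation given above, so the TATA box is nearer to the latter. TATAAA was in 13.6% of the windows. The full palindromic estrogen response element was in none of the member windows searched (Areg, Epgn, Btc, Tgfa and Egf) and in 0.0700% of all windows. The AP-1 letters TGAGTCA and TGACTCA, each the reverse complement of the other, were in none of these windows and in 5.20% of all.

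Areg led among the 9 ligands in hormone-sensing cells of all 4 libraries and in mixed cells, and Nrg1 led in basal cells of all 4 libraries. Hbegf led in secretory cells that met no other rule. Over all secretory cells Areg stood above Hbegf in Y541S vehicle (342 CPM and 250 CPM) and in wild-type giredestrant (596 CPM and 233 CPM). Each transcript is tagged at its 3′ end, so CPM of the summed UMIs of a class are not scaled by gene length. The 9 ligands together took 2684 CPM of hormone-sensing cells in the Y541S giredestrant library, 3213 CPM in Y541S vehicle, 2575 CPM in wild-type giredestrant and 1955 CPM in wild-type vehicle. Of those ligand UMIs Areg gave 83.3% in Y541S giredestrant, 91.5% in Y541S vehicle, 94.2% in wild-type giredestrant and 87.0% in wild-type vehicle. In basal cells the 9 ligands took 1692 CPM in Y541S giredestrant, 1841 CPM in Y541S vehicle, 1148 CPM in wild-type giredestrant and 1367 CPM in wild-type vehicle, and Nrg1 gave 67.8% to 82.9% of those UMIs.

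The classes were compared over the 4 libraries with edgeR's quasi-likelihood test on class sums, with library as a block and Benjamini-Hochberg adjustment over 17530 genes. In hormone-sensing against secretory cells 2 of the 9 ligands were higher and 3 lower, where 24.3% of all genes were higher and 21.7% lower. In hormone-sensing against basal cells 3 were higher and 4 lower, against 33.6% and 29.2% of all genes. In secretory against basal cells 3 were higher and 4 lower, against 25.8% and 24.7%. With cells of exactly 1 class, Areg (-1.21, edgeR adjusted p = 0.0435) and Epgn (-2.28, edgeR adjusted p = 0.00088) were lower too in secretory than in basal cells, which makes 6 lower. Such class differences were thus common among all genes. Areg was higher in hormone-sensing than in basal cells by 4.64 ± 0.68 on the log2 scale (SE, edgeR adjusted p = 0.000323), in 4 of 4 libraries. Epgn was higher by 3.25 ± 0.48 (edgeR adjusted p = 0.000316) and Btc by 4.45 ± 0.55 (edgeR adjusted p = 0.000118), also in 4 of 4 libraries. The remaining gene of the chromosome 5 group went the other way, since Ereg was lower in hormone-sensing than in basal cells by a log2 difference of -5.05 ± 0.49 (edgeR adjusted p = 2.95e-05).

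Nrg1 had the widest gap, at -6.33 ± 0.36 on the log2 scale for hormone-sensing against basal cells (SE, edgeR adjusted p = 1.92e-06), with means of 16.2 ± 8.59 CPM in hormone-sensing cells and 1121 ± 214 CPM in basal cells (SD over 4 libraries). Nrg2 was lower too, at -4.36 ± 0.53, and Tgfa at -1.71 ± 0.19. Hbegf did not pass between hormone-sensing and basal cells (-0.18 ± 0.25, edgeR adjusted p = 0.55), and it was lower in hormone-sensing than in secretory cells by -1.49 ± 0.26 (edgeR adjusted p = 0.0016). Egf was nearly absent from every class, at no more than 1.03 CPM. It passed only for secretory against basal cells (1.52 ± 0.44, edgeR adjusted p = 0.0169), and without the Y541S giredestrant, Y541S vehicle or wild-type vehicle library it did not (adjusted p of 0.0509, 0.104 and 0.0912). Nrg2, lower in secretory than in basal cells (-1.62 ± 0.46, edgeR adjusted p = 0.0164), likewise lost its call without each of the same 3 libraries (0.0766, 0.0819 and 0.0536) and without the library block (0.0565).

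**Figure D1:**
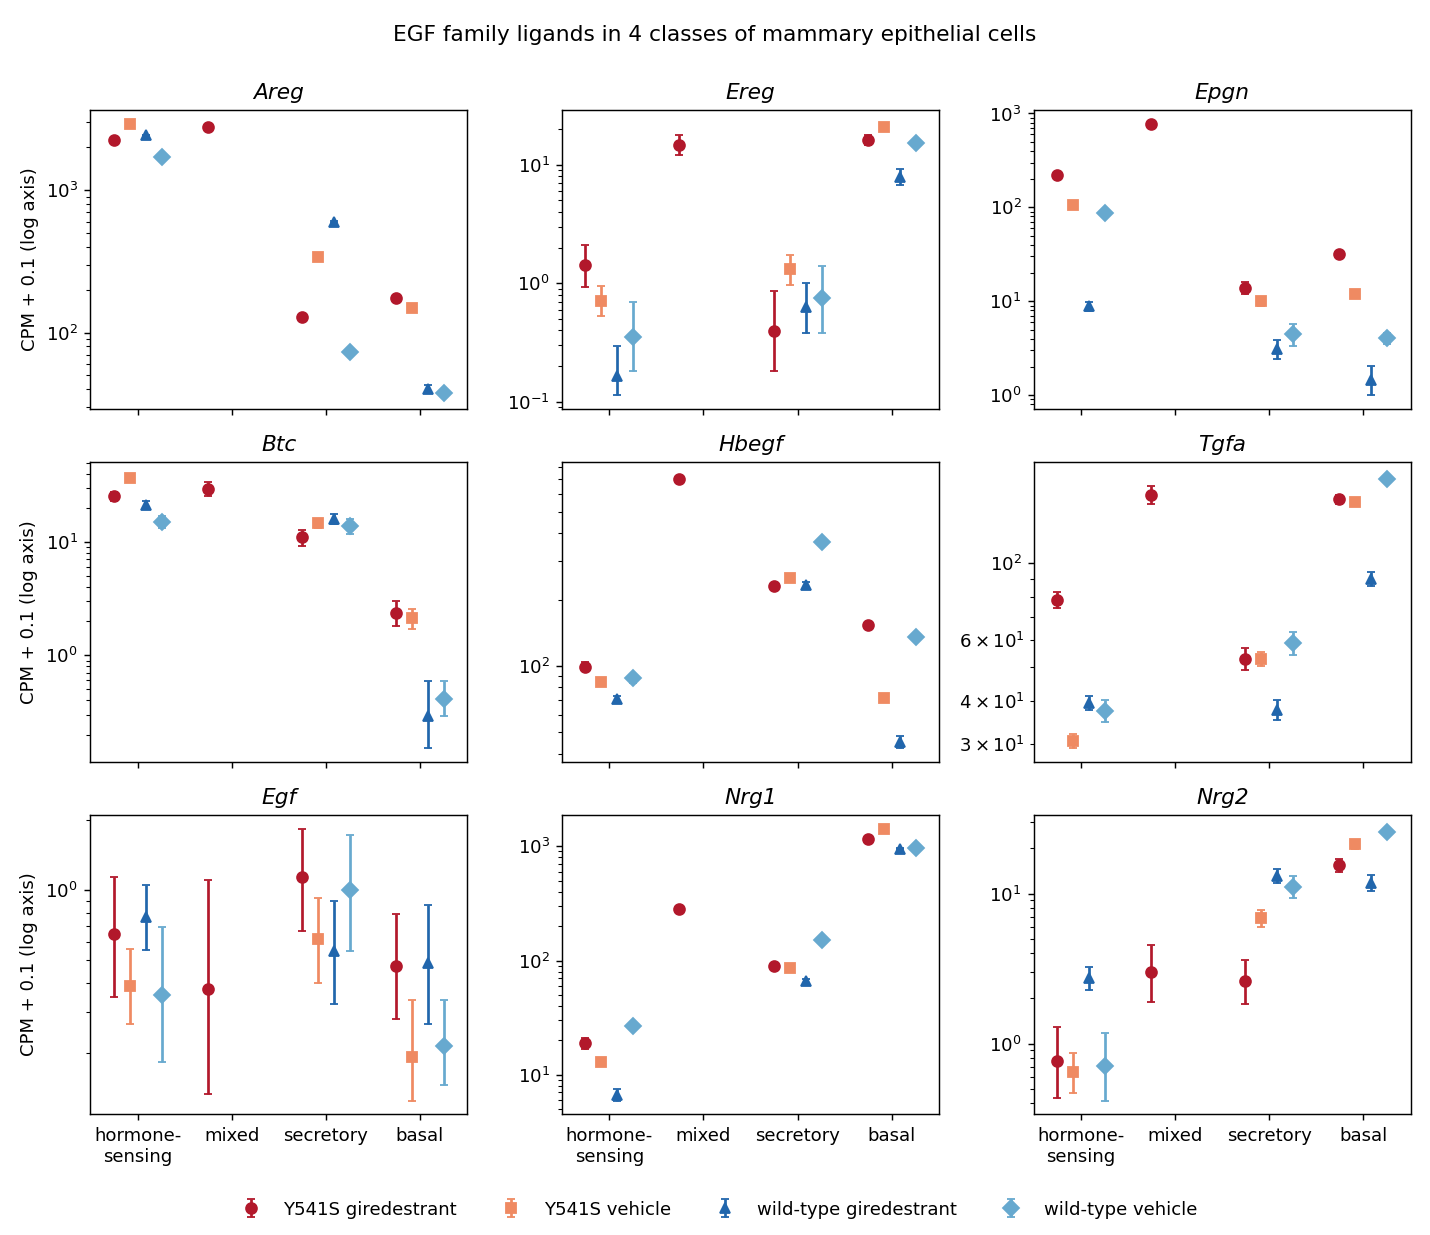
Levels of the 9 ligands in CPM plus 0.1 (log axis) in hormone-sensing, mixed, secretory and basal cells of each library, for classes of 50 or more cells; bars are exact Poisson 95% intervals and cover counting error only. Areg stood between 1700 and 2941 CPM in hormone-sensing cells of all 4 libraries, while Epgn there ranged between 8.71 CPM in wild-type giredestrant and 224 CPM in Y541S giredestrant.

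Between libraries there is 1 sample a group, and no test was run. Ratios are therefore given as log2 CPM ratios minus the median log2 ratio of all genes with 20 or more UMIs (relative log2 ratios), with exact 95% intervals that cover counting error only. A ratio of at least 1 or at most -1, which is 2-fold, is called higher or lower. The median gene itself lay at 0.34 in hormone-sensing cells for giredestrant against vehicle in Y541S and at 0.44 in wild type, at 0.15 in basal cells for giredestrant in wild type, at 0.11 in hormone-sensing cells for Y541S against wild type under vehicle, at -0.11 in secretory cells for Y541S against wild type under giredestrant and at -0.30 for mixed against hormone-sensing cells.

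Areg, which encodes amphiregulin, stayed high in hormone-sensing cells of every library. It stood at 2236 CPM in Y541S giredestrant, 2941 CPM in Y541S vehicle, 2425 CPM in wild-type giredestrant and 1700 CPM in wild-type vehicle. Giredestrant against vehicle gave a relative log2 ratio of -0.74 (95% interval -0.75 to -0.72) in Y541S and 0.07 (0.05 to 0.09) in wild type, both within 2-fold. Among hormone-sensing cells with fewer than 3 UMIs per 10000 of the keratin Krt6a, the Y541S ratio was -1.19, past 2-fold. Thinned to 2000 UMIs per cell, 84.1% of Y541S giredestrant cells, 94.7% of Y541S vehicle cells, 79.7% of wild-type giredestrant cells and 75.8% of wild-type vehicle cells had an Areg UMI. Without thinning the shares were 91.5% in Y541S giredestrant, 99.1% in Y541S vehicle, 92.7% in wild-type giredestrant and 92.2% in wild-type vehicle. In non-epithelial cells of the same libraries, set beside them as a background that may include expression of their own, the thinned shares were 3.13% in Y541S giredestrant, 3.92% in Y541S vehicle, 1.67% in wild-type giredestrant and 0% of 110 cells in wild-type vehicle, which allows up to 2.73%. The non-epithelial cells had median depths of 5366 to 10058 UMIs and the hormone-sensing cells of 9269 to 30998 UMIs. Areg was thus broad among hormone-sensing cells, with a median cell at 16.9 UMIs per 10000 in Y541S giredestrant, 26.8 in Y541S vehicle, 19.0 in wild-type giredestrant and 12.4 in wild-type vehicle.

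Areg outside hormone-sensing cells depended on which cells were counted. In secretory cells it stood at 129 CPM in Y541S giredestrant, 342 CPM in Y541S vehicle, 596 CPM in wild-type giredestrant and 73.0 CPM in wild-type vehicle, and giredestrant against vehicle gave -1.42 in Y541S and 2.97 in wild type. Among secretory cells that met no other rule it stood at 49.2 CPM in Y541S giredestrant, 54.3 CPM in Y541S vehicle, 20.4 CPM in wild-type giredestrant and 27.6 CPM in wild-type vehicle, and the same ratios were -0.15 in Y541S and -0.49 in wild type. Of the secretory cells 10.7% in Y541S giredestrant, 11.8% in Y541S vehicle, 20.5% in wild-type giredestrant and 11.3% in wild-type vehicle met another rule as well. Both giredestrant calls for Areg in secretory cells were thus lost without the cells that met a second rule. Whether those cells are doublets was not tested.

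In basal cells Areg was higher with the mutant receptor. It stood at 174 CPM in Y541S giredestrant, 149 CPM in Y541S vehicle, 40.0 CPM in wild-type giredestrant and 37.7 CPM in wild-type vehicle, so both Y541S libraries lay above both wild-type ones. Y541S against wild type gave 2.20 (95% interval 2.09 to 2.31) under giredestrant and 1.95 (1.89 to 2.02) under vehicle, and 3.14 and 1.86 among basal cells that met no other rule. Few basal cells carried it, since 7.96% in Y541S giredestrant, 5.35% in Y541S vehicle, 1.86% in wild-type giredestrant and 1.60% in wild-type vehicle had a UMI after thinning. The level in non-epithelial cells moved in the same direction, at 19.1 CPM from 8 UMIs in Y541S giredestrant, 44.4 CPM from 26 UMIs in Y541S vehicle, 1.42 CPM from 1 UMI in wild-type giredestrant and 0.973 CPM from 1 UMI in wild-type vehicle. Its part in the basal difference was not tested.

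Epgn, which encodes the EGFR ligand epigen, had the largest ratio of the highest to the lowest library among the 9 ligands in hormone-sensing cells. It stood at 224 CPM in Y541S giredestrant, 106 CPM in Y541S vehicle, 8.71 CPM in wild-type giredestrant and 86.6 CPM in wild-type vehicle, so the wild-type giredestrant library lay far below the other 3. In wild type, giredestrant against vehicle gave a relative log2 ratio of -3.76 (95% interval -3.92 to -3.60), which is 13.5-fold lower. In Y541S the same comparison gave 0.74 (0.68 to 0.80), within 2-fold. Y541S against wild type gave 4.68 (4.53 to 4.83) under giredestrant, which is 25.6-fold higher, and 0.17 (0.10 to 0.25) under vehicle. After thinning, 18.9% of hormone-sensing cells had an Epgn UMI in Y541S giredestrant, 12.5% in Y541S vehicle, 1.38% in wild-type giredestrant and 7.81% in wild-type vehicle. Without thinning the shares were 32.7% in Y541S giredestrant, 37.4% in Y541S vehicle, 6.23% in wild-type giredestrant and 35.2% in wild-type vehicle. No non-epithelial cell of any library held an Epgn UMI, which allows up to 7.18 CPM in Y541S giredestrant, 5.12 CPM in Y541S vehicle, 4.25 CPM in wild-type giredestrant and 2.92 CPM in wild-type vehicle.

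The hormone-sensing rule bounds Krt14 and not Krt6a, and Epgn went with Krt6a, a keratin of activated epithelium. Of the hormone-sensing cells 32.6% in Y541S giredestrant, 19.4% in Y541S vehicle, 1.71% in wild-type giredestrant and 31.8% in wild-type vehicle had 3 or more Krt6a UMIs per 10000. In those cells Epgn stood at 575 CPM in Y541S giredestrant, 237 CPM in Y541S vehicle, 42.3 CPM in wild-type giredestrant (28 UMIs in 20 cells) and 115 CPM in wild-type vehicle. In the hormone-sensing cells below that bound it stood at 54.1 CPM in Y541S giredestrant, 74.9 CPM in Y541S vehicle, 8.21 CPM in wild-type giredestrant and 72.7 CPM in wild-type vehicle. In these low cells giredestrant against vehicle gave -0.82 in Y541S and -3.54 in wild type, and Y541S against wild type under giredestrant gave 2.69. Among cells low in Krt6a the wild-type giredestrant library was thus again the lowest, and Y541S giredestrant stood below Y541S vehicle. The split was chosen after the values were seen, and Krt6a itself differed between the libraries, so its part in the Epgn difference was not tested. With hormone-sensing and mixed cells counted together, the Y541S ratio was 1.59.

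In basal cells Epgn was low and followed the same order, at 31.6 CPM in Y541S giredestrant, 11.8 CPM in Y541S vehicle, 1.35 CPM in wild-type giredestrant and 3.92 CPM in wild-type vehicle. The wild-type giredestrant level, from 28 UMIs, was no higher than the 4.25 CPM that 0 UMIs in non-epithelial cells allow. For wild-type vehicle that bound was 2.92 CPM. Giredestrant against vehicle gave 1.34 (95% interval 1.18 to 1.51) in Y541S and -1.69 (-2.31 to -1.12) in wild type. Leaving out the cells with the highest doublet scores brought the Y541S ratio to 0.16. Krt6a moved with it in basal cells, at 91.2 CPM in Y541S giredestrant, 15.1 CPM in Y541S vehicle, 1.54 CPM in wild-type giredestrant and 8.76 CPM in wild-type vehicle, and its part in the difference was not tested. In secretory cells Epgn was within 2-fold for giredestrant in both genotypes (0.47 in Y541S and -0.61 in wild type). Without cells that met another rule it rested on 74 UMIs in Y541S giredestrant, 52 in Y541S vehicle, 6 in wild-type giredestrant and 20 in wild-type vehicle, and the ratios were 1.67 in Y541S and -2.32 in wild type.

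Hbegf encodes a ligand of EGFR and ERBB4 that cells shed early after injury. In hormone-sensing cells it stood at 99.3 CPM in Y541S giredestrant, 84.6 CPM in Y541S vehicle, 70.7 CPM in wild-type giredestrant and 88.1 CPM in wild-type vehicle, and no comparison between these libraries reached 2-fold. With cells of exactly 1 class, 2 of them did, at -1.38 for giredestrant in wild type and 1.10 for Y541S against wild type under giredestrant. Below 3 Krt6a UMIs per 10000 it stood at 26.3 CPM in Y541S giredestrant, 75.2 CPM in Y541S vehicle, 70.0 CPM in wild-type giredestrant and 72.0 CPM in wild-type vehicle, so the Y541S giredestrant library was then the lowest, with a ratio of -1.87 against Y541S vehicle. In secretory cells Hbegf stood at 230 CPM in Y541S giredestrant, 250 CPM in Y541S vehicle, 233 CPM in wild-type giredestrant and 364 CPM in wild-type vehicle, all within 2-fold of each other. Without cells that met another rule it stood at 240 CPM in Y541S giredestrant, 276 CPM in Y541S vehicle, 277 CPM in wild-type giredestrant and 392 CPM in wild-type vehicle. Of all secretory cells 27.0% in Y541S giredestrant, 31.0% in Y541S vehicle, 30.9% in wild-type giredestrant and 33.5% in wild-type vehicle had a UMI after thinning, against 7.84% to 13.6% in non-epithelial cells. In basal cells it stood at 153 CPM in Y541S giredestrant, 71.2 CPM in Y541S vehicle, 45.3 CPM in wild-type giredestrant and 136 CPM in wild-type vehicle. There giredestrant against vehicle gave 1.03 (0.96 to 1.10) in Y541S and -1.74 (-1.84 to -1.64) in wild type, so the libraries of the 2 genotypes moved in opposite directions.

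Tgfa, an EGFR ligand, was basal in the main. In basal cells it stood at 153 CPM in Y541S giredestrant, 150 CPM in Y541S vehicle, 89.9 CPM in wild-type giredestrant and 175 CPM in wild-type vehicle, and the wild-type giredestrant library was the low one, with -1.12 (95% interval -1.19 to -1.05) against vehicle. In hormone-sensing cells the Y541S giredestrant library stood out instead, at 78.2 CPM, against 30.5 CPM in Y541S vehicle, 39.2 CPM in wild-type giredestrant and 37.2 CPM in wild-type vehicle. The ratio against Y541S vehicle was 1.01 (0.91 to 1.12), at the edge of the 2-fold bound, and 0.42 among cells low in Krt6a.

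Btc, which encodes a ligand of EGFR and ERBB4, was luminal and low. It stood in hormone-sensing cells at 25.2 CPM in Y541S giredestrant, 36.5 CPM in Y541S vehicle, 21.2 CPM in wild-type giredestrant and 14.9 CPM in wild-type vehicle. Y541S against wild type under vehicle gave 1.18 (95% interval 1.003 to 1.36), and 0.73 in cells thinned to 2000 UMIs. In basal cells it stood at 2.24 CPM in Y541S giredestrant and 2.02 CPM in Y541S vehicle, against 0.193 CPM in wild-type giredestrant (4 UMIs) and 0.314 CPM in wild-type vehicle (19 UMIs). Both Y541S libraries again lay above both wild-type ones, as they did for Areg. In non-epithelial cells Btc stood at 2.39 CPM from 1 UMI in Y541S giredestrant and at 0.973 CPM from 1 UMI in wild-type vehicle. It had 0 UMIs in Y541S vehicle and wild-type giredestrant, which allows up to 5.12 and 4.25 CPM. The basal levels of Btc were thus no higher than this background allows, and its part in the basal difference was not tested.

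Ereg, which encodes another ligand of EGFR and ERBB4, was found mainly in basal cells, at 16.0 CPM in Y541S giredestrant, 20.9 CPM in Y541S vehicle, 7.82 CPM in wild-type giredestrant and 15.1 CPM in wild-type vehicle. In hormone-sensing cells it rested on 22 UMIs in Y541S giredestrant, 36 in Y541S vehicle, 3 in wild-type giredestrant and 5 in wild-type vehicle, so ratios there are weakly supported. In secretory cells it rested on 4 UMIs in Y541S giredestrant and 40 in Y541S vehicle, a ratio of -2.05 (95% interval -3.99 to -0.58). Egf rested on 2 to 30 UMIs in any class sum of 50 or more cells, so its ratios are weakly supported as well.

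Nrg1, the ERBB3 and ERBB4 ligand of basal cells, stood there at 1147 CPM in Y541S giredestrant, 1415 CPM in Y541S vehicle, 951 CPM in wild-type giredestrant and 973 CPM in wild-type vehicle. No comparison between libraries reached 2-fold in basal cells, with ratios of -0.38 and -0.19 for giredestrant against vehicle in Y541S and wild type and of 0.35 and 0.52 for Y541S against wild type under giredestrant and vehicle. Basal cells differed widely in it among themselves. The 10% of basal cells with the highest Nrg1 held 55.6% of its level in Y541S giredestrant, 51.7% in Y541S vehicle, 66.0% in wild-type giredestrant and 58.0% in wild-type vehicle. In hormone-sensing cells Nrg1 stood at 18.9 CPM in Y541S giredestrant, 12.7 CPM in Y541S vehicle, 6.57 CPM in wild-type giredestrant and 26.7 CPM in wild-type vehicle. The wild-type ratio for giredestrant was -2.46 (95% interval -2.67 to -2.25), and -0.96 with the highest doublet scores left out. In Y541S it was 0.23, and 1.38 with those scores left out. Y541S against wild type under vehicle gave -1.18, and -0.57 with cells of exactly 1 class. At least 99.1% of the Nrg1 level of hormone-sensing cells lay in the top 10% of cells of every library.

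Nrg2, also a ligand of ERBB3 and ERBB4, was low throughout. In basal cells it stood at 15.3 CPM in Y541S giredestrant, 21.2 CPM in Y541S vehicle, 11.7 CPM in wild-type giredestrant and 25.7 CPM in wild-type vehicle. In secretory cells it stood at 2.51 CPM in Y541S giredestrant, 6.72 CPM in Y541S vehicle, 13.1 CPM in wild-type giredestrant and 10.996 CPM in wild-type vehicle. Both giredestrant libraries were below their vehicle library in basal cells, by -0.54 in Y541S and -1.29 in wild type, while in secretory cells the ratio was -1.43 in Y541S and 0.19 in wild type.

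Counted over the members, hormone-sensing cells of Y541S had 1 of 9 ligands higher with giredestrant (Tgfa) and 0 lower, against 12.8% of 17002 genes higher and 12.2% lower. In wild type 1 of the 8 tested was higher (Nrg2) and 2 were lower (Epgn and Nrg1), against 12.5% and 12.2% of 16791 genes. In secretory cells giredestrant gave 0 higher and 3 lower of 9 in Y541S (Areg, Ereg and Nrg2, against 7.42% and 6.94% of 16044 genes) and 1 higher and 2 lower of 9 in wild type (Areg higher, Egf and Nrg1 lower, against 6.19% and 6.03% of 15756 genes). The Egf call rested on 11 UMIs in each library.

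In basal cells of Y541S 2 of 8 ligands were higher with giredestrant (Epgn and Hbegf) and 0 lower, against 7.13% of 17468 genes higher and 4.52% lower. In wild type 0 were higher and 5 of 8 were lower (Ereg, Epgn, Hbegf, Tgfa and Nrg2), against 6.06% and 6.67% of 17855 genes, with a median relative log2 ratio of -1.11 over the 8 ligands where that of all genes is 0. Under giredestrant, Y541S against wild type gave 5 of 8 higher in basal cells (Areg, Ereg, Epgn, Hbegf and Btc) and 0 lower, against 8.29% and 6.47% of 16826 genes. Under vehicle it gave 3 of 8 higher (Areg, Epgn and Btc) and 0 lower, against 3.7% and 4.89% of 18282 genes. The 2 giredestrant and 2 genotype comparisons use the same 4 libraries, so their counts are not separate evidence.

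In the other classes the genotype gave 3 of 9 ligands higher in hormone-sensing cells under giredestrant (Ereg, Epgn and Nrg1) and 1 lower (Nrg2), against 13% and 11.7% of 17064 genes. That Ereg call rested on 22 UMIs in Y541S and 3 in wild type. Among hormone-sensing cells that met no other rule, Nrg2 stood at 0.451 CPM in Y541S giredestrant and 0.421 CPM in wild-type giredestrant. Under vehicle 2 of 9 were higher in hormone-sensing cells (Ereg and Btc) and 1 lower (Nrg1), against 4.61% and 5.63% of 16594 genes. The Ereg call under vehicle rested on 36 UMIs in Y541S and 5 in wild type, and its 95% interval of -0.21 to 2.85 includes 0. The Btc ratio was within 2-fold in thinned cells, and the Nrg1 ratio was so with cells of exactly 1 class. In secretory cells 2 of 8 were higher under giredestrant (Epgn, and Egf on 14 UMIs in Y541S and 11 in wild type) and 2 lower (Areg and Nrg2), against 8.59% and 9.47% of 15876 genes, and 2 of 9 were higher under vehicle (Areg and Epgn) and 0 lower, against 3.28% and 4.82% of 15912 genes. Without the cells that met a second rule, the Areg ratios were 1.36 under giredestrant and 0.996 under vehicle, and the Epgn ratio under vehicle was 0.025.

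**Figure D2:**
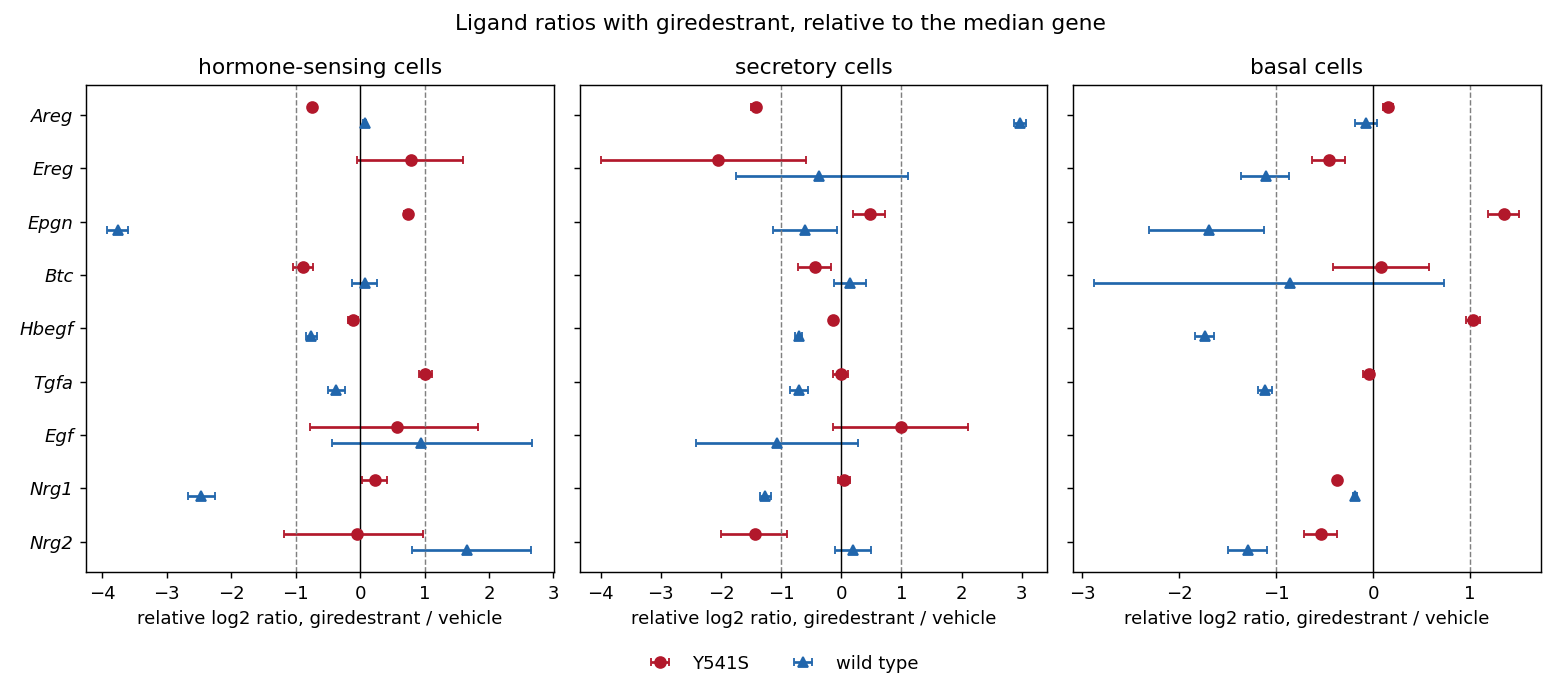
Relative log2 ratios of giredestrant to vehicle in Y541S (upper symbol of each pair) and wild type (lower symbol) for each ligand with 20 or more UMIs, with exact 95% intervals for counting error; dashed lines mark 2-fold. In hormone-sensing cells Epgn lay at 0.74 in Y541S and at -3.76 in wild type, and in basal cells Hbegf lay at 1.03 in Y541S and at -1.74 in wild type.

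Mixed cells, found almost only in the Y541S giredestrant library, had the highest summed ligand level of any class. It stood at 4723 CPM for the 9 ligands together, against 2684 CPM in hormone-sensing cells of that library. Areg stood at 2762 CPM in mixed cells and 2236 CPM in hormone-sensing cells. Epgn stood at 766 CPM in mixed and 224 CPM in hormone-sensing cells, and Hbegf at 706 CPM in mixed and 99.3 CPM in hormone-sensing cells. Nrg1 stood at 284 CPM in mixed cells, between 18.9 CPM in hormone-sensing and 1147 CPM in basal cells. Of 8 ligands tested, 6 were higher in mixed than in hormone-sensing cells and 0 lower, against 11.7% and 12.2% of 14913 genes. The relative log2 ratios were 4.22 (95% interval 4.05 to 4.40) for Nrg1, 3.75 (3.08 to 4.49) for Ereg, 3.14 (3.06 to 3.22) for Hbegf, 2.43 (1.32 to 3.63) for Nrg2, 2.08 (2.02 to 2.14) for Epgn and 1.31 (1.198 to 1.43) for Tgfa. Areg was within 2-fold, at 0.61 (0.58 to 0.63), and at 1.14 against hormone-sensing cells low in Krt6a. Hormone-sensing cells of that library with 3 or more Krt6a UMIs per 10000 had 3498 CPM of Areg, above the mixed cells, 575 CPM of Epgn, 133 CPM of Tgfa, 250.5 CPM of Hbegf and 25.5 CPM of Nrg1. Set beside 2762, 766, 157, 706 and 284 CPM in mixed cells, Epgn and Tgfa were then less than 2-fold apart in CPM, and Hbegf and Nrg1 were more.

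Against basal cells of the same library, 4 of 8 ligands were higher in mixed cells (Areg, Epgn, Btc and Hbegf) and 2 lower (Nrg1 and Nrg2), against 13.2% and 18.1% of 15935 genes. Epgn gave 4.64 (95% interval 4.54 to 4.75), Areg 4.03 (3.99 to 4.08), Btc 3.74 (3.32 to 4.18) and Hbegf 2.25 (2.19 to 2.31). Nrg1 gave -1.97 (-2.03 to -1.90). Hbegf and Epgn were higher in mixed cells than in either neighbouring class, which was not so for Nrg1. Cells of 1 library are not replicates, so these ratios describe that library, and the fit of mixed against hormone-sensing cells over libraries could not be run with mixed cells in 1 library.

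Within that library 5 ligands stood higher in cells with more Krt6a. Among all cells of that library that met the receptor rule with fewer than 5 Acta2 UMIs per 10000, at any Krt14, Epgn stood at 42.2 CPM below 1 Krt6a UMI per 10000 (954 cells), 196 CPM between 1 and 3 (138 cells), 436 CPM between 3 and 10 (289 cells), 732 CPM between 10 and 30 (571 cells) and 848 CPM at 30 or more (361 cells). Median depths of the 5 ranges lay between 8361 and 9591 UMIs, so depth differed little along them. Hbegf stood at 25.8, 59.2, 288, 566 and 634 CPM along the same ranges, and Nrg1 at 20.2, 23.0, 96.2, 190 and 221 CPM. Areg stood at 1484, 2529, 2480, 3204 and 3430 CPM, and Tgfa at 52.0, 63.5, 104, 157 and 172 CPM. In the Y541S vehicle library Epgn also stood higher with Krt6a, at 67.1, 98.8, 201 and 407 CPM over the first 4 ranges, and in wild-type vehicle at 56.8, 108, 94.2 and 162 CPM. Nrg1 did not there: it stood at 8.03, 15.7, 3.08 and 2.23 CPM in Y541S vehicle and 21.9, 2.10, 9.54 and 1.25 CPM in wild-type vehicle. By Krt14, with the same ranges, Nrg1 in Y541S giredestrant stood at 14.6, 29.0, 165, 301 and 416 CPM. In Y541S vehicle it stood at 4.92 CPM below 1 Krt14 UMI per 10000 (2147 cells) and at 365 CPM between 1 and 3 (21 cells), so Nrg1 went with Krt14, a basal keratin, in both of these libraries.

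**Figure D3:**
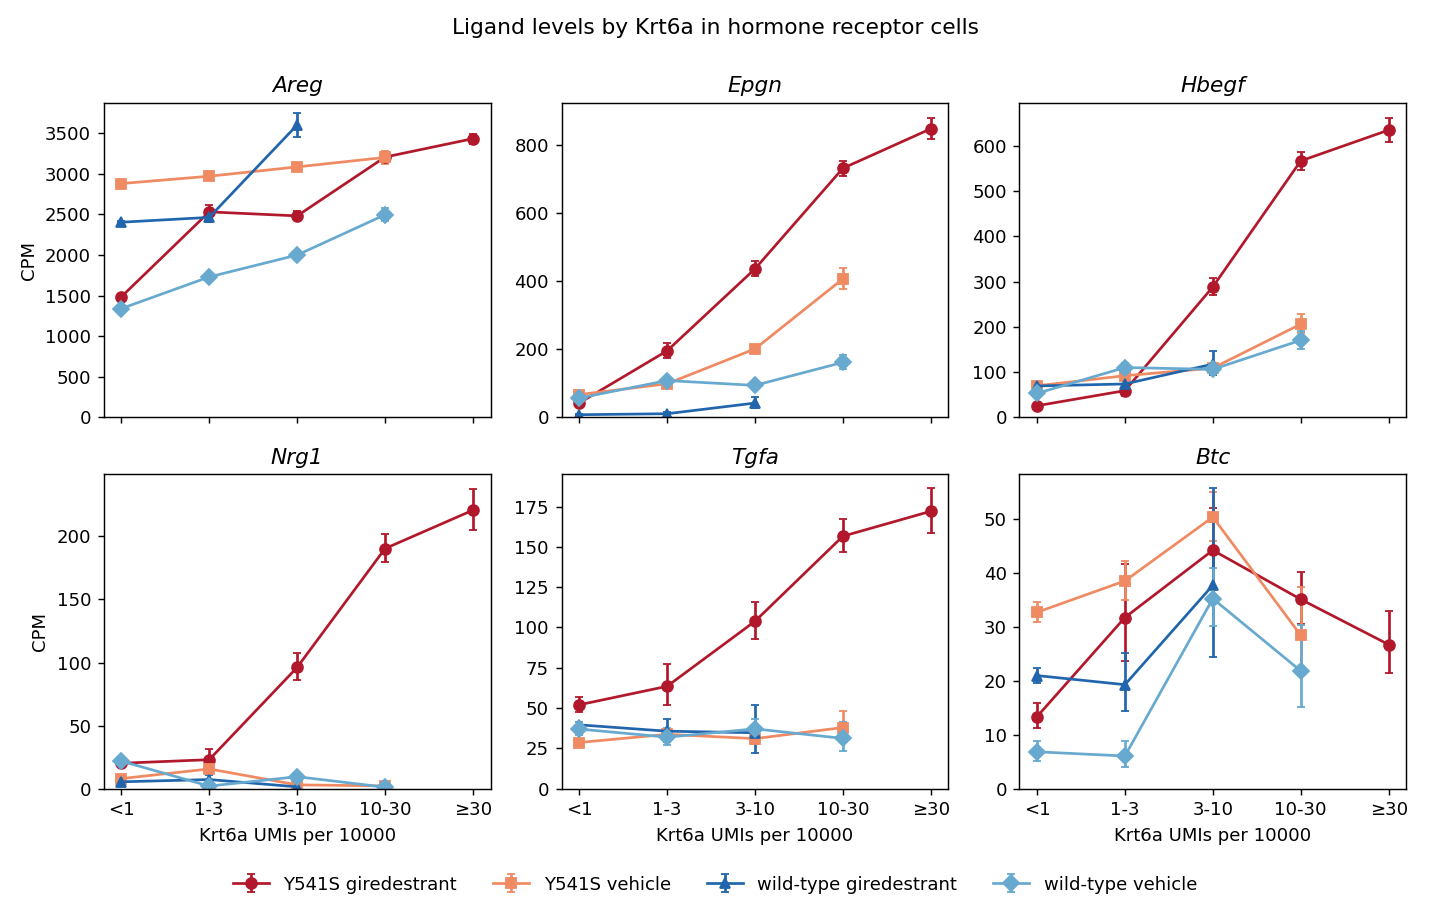
Levels in CPM of 6 ligands in cells that met the hormone receptor rule with fewer than 5 Acta2 UMIs per 10000, by their Krt6a UMIs per 10000, for ranges of 20 or more cells; bars are exact Poisson 95% intervals. In Y541S giredestrant cells Epgn stood at 42.2 CPM in the lowest Krt6a range and 848 CPM in the highest, and Nrg1 at 20.2 CPM and 221 CPM.

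Ligands were also found together in the same cell. With every cell thinned to 2000 UMIs, 53.6% of 702 mixed cells held 3 or more of the 9 ligands, against 11.9% of hormone-sensing cells in the same library, 4.78% of those in Y541S vehicle, 1.72% in wild-type giredestrant and 2.25% in wild-type vehicle. A mixed cell held 2.59 ligands on average, and a hormone-sensing cell of that library 1.39. Areg and Epgn were both found in 45.9% of mixed cells and in 18.3% of hormone-sensing cells of Y541S giredestrant, 12.2% in Y541S vehicle, 1.29% in wild-type giredestrant and 6.46% in wild-type vehicle. In secretory cells 0 ligands were found in 54.2% of cells in Y541S giredestrant, 50.1% in Y541S vehicle, 44.8% in wild-type giredestrant and 48.4% in wild-type vehicle.

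**Figure D4:**
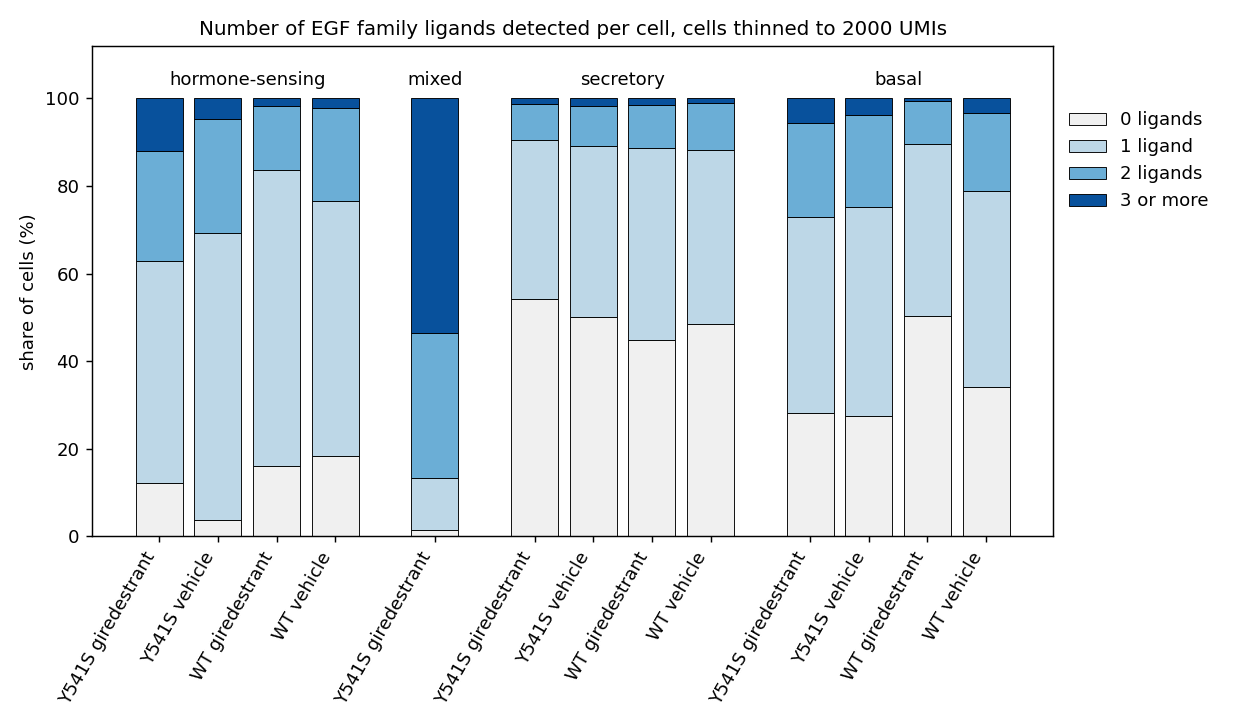
Share of cells, in percent, with 0, 1, 2 or 3 or more of the 9 ligands detected, by class and library, after thinning each cell to 2000 UMIs. Mixed cells stood apart, with 53.6% at 3 or more ligands against 11.9% in hormone-sensing cells of the same library.

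The sources of Areg, Epgn and Hbegf UMIs differed in the Y541S giredestrant library, where mixed cells added to them. Counting cells that met exactly 1 rule, hormone-sensing cells gave 49.999% of all Areg UMIs in Y541S giredestrant, 89.3% in Y541S vehicle, 85.4% in wild-type giredestrant and 89.3% in wild-type vehicle. Mixed cells gave 27.5% of Areg, 43.5% of Epgn and 31.0% of Hbegf UMIs in Y541S giredestrant. Basal cells gave 81.8% of Nrg1 UMIs in Y541S giredestrant, 89.9% in Y541S vehicle, 84.6% in wild-type giredestrant and 84.8% in wild-type vehicle. Cells of no class made up 13.3% of the Y541S giredestrant library, 4.35% of Y541S vehicle, 5.45% of wild-type giredestrant and 9.83% of wild-type vehicle. In Y541S giredestrant they held 9948 of 71921 Areg UMIs, 2451 of 12577 Epgn UMIs and 2596 of 16270 Hbegf UMIs. In Y541S vehicle these were 2524 of 183404, 152 of 6950 and 185 of 15572.

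Egfr, the receptor of amphiregulin and epigen, stood in basal cells at 285 CPM in Y541S giredestrant, 222 CPM in Y541S vehicle, 210 CPM in wild-type giredestrant and 225 CPM in wild-type vehicle. In hormone-sensing cells it stood at 149 CPM in Y541S giredestrant, 9.16 CPM in Y541S vehicle, 21.8 CPM in wild-type giredestrant and 8.36 CPM in wild-type vehicle, and in mixed cells at 618 CPM. Giredestrant against vehicle gave 3.68 (95% interval 3.55 to 3.82) for Egfr in Y541S hormone-sensing cells. Erbb4, a neuregulin receptor, was higher there with giredestrant in both genotypes, at 2.69 (2.60 to 2.78) in Y541S and 1.39 (1.25 to 1.54) in wild type. Erbb3 was lower with giredestrant in Y541S. Giredestrant thus gave 2 of 4 receptors higher and 1 lower in Y541S, where 12.8% of all genes were higher and 12.2% lower. In wild type it gave 1 higher and 0 lower, against 12.5% and 12.2% of all genes. Of the 4 receptors, Egfr was higher in mixed than in hormone-sensing cells (2.35), and Erbb3 (-1.29) and Erbb4 (-2.26) were lower. Of all genes 11.7% were higher and 12.2% lower in that comparison.

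Among the feedback inhibitors of this pathway, 5 of 10 were higher in mixed than in hormone-sensing cells and 0 lower, where 11.7% of all genes were higher and 12.2% lower. They were the ERK phosphatase genes Dusp5 (1.61) and Dusp6 (2.14), Spry1 (1.25) and Spry2 (1.69), which encode Sprouty inhibitors, and Lrig1 (1.32), which encodes a negative regulator of EGFR. Against basal cells 0 of these 10 were higher in mixed cells and 4 were lower (Lrig1, Socs3, Spry1 and Spry4), where 13.2% of all genes were higher and 18.1% lower. Of 8 transcription targets of the ERK pathway, Fosl1 (2.47), Phlda1 (2.22) and Ier3 (1.33) were higher in mixed than in hormone-sensing cells and 0 lower, beside the same 11.7% and 12.2% of all genes. Of 10 genes for shedding and trafficking, Rhbdl2 (1.05), a rhomboid protease gene, was higher there and the sheddase gene Adam10 (-1.41) lower.

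In hormone-sensing cells giredestrant gave 1 feedback inhibitor higher (Dusp6, 1.42) and 1 lower (Spry1, -1.18) in Y541S, and 3 higher (Socs3, 1.61; Dusp6, 1.04; Lrig1, 1.002) and 1 lower (Spry1, -1.40) in wild type. Of all genes 12.8% were higher and 12.2% lower in Y541S, and 12.5% and 12.2% in wild type. Of the ERK targets, Etv4 (1.18), Fosl1 (1.17) and Phlda1 (1.19) were higher and Fos (-1.41) and Ier3 (-1.47) lower in Y541S, while Phlda1 (2.38) and Egr1 (1.27) were higher and Etv4 (-1.35) and Etv5 (-1.13) lower in wild type. In basal cells, Y541S against wild type under giredestrant gave 4 of 10 feedback inhibitors higher (Dusp4, Dusp5, Errfi1 and Spry2) and 0 lower, where 8.29% of all genes were higher and 6.47% lower. Of the 8 ERK targets Fosl1 (1.36) and Phlda1 (1.69) were higher there and Egr1 (-1.18) and Fos (-1.32) lower.

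Nrg4, an ERBB4 ligand outside the 9 members, stood in hormone-sensing cells at 6.61 CPM in Y541S giredestrant, 15.9 CPM in Y541S vehicle, 186 CPM in wild-type giredestrant and 10.9 CPM in wild-type vehicle. Giredestrant against vehicle gave -1.61 (95% interval -1.91 to -1.32) in Y541S and 3.65 (3.46 to 3.85) in wild type. The wild-type giredestrant library, the lowest of the 4 for Epgn, was thus the highest for Nrg4. The wild-type ratio was 4.996 in secretory and 2.25 in basal cells. Nrg3, the remaining ligand of the list, stayed at or below 1.40 CPM in every group of cells.

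By likeness of pattern over the 13 class sums of 50 or more cells, the 5 genes nearest to each ligand were found by Pearson's r of log2(CPM + 1) among 9004 genes. These sums share libraries, so r is a description. Nearest to Areg were Acsbg1 (0.98), Foxa1, Gipc2, Cdo1 and Bmp3, and nearest to Epgn were Krt6a (0.97), F3, Cpeb2, Sgk1 and Afap1l1. Foxa1 and Krt6a belong to the class rules. Nearest to Tgfa was Col18a1 (0.98), nearest to Btc was Lgals3 (0.98), nearest to Ereg was L3mbtl3 (0.98) and nearest to Nrg2 was Gpc6 (0.97). Nrg1 was nearest to Lrrc8c (0.98), Krt5, Sema5a, Fhod3 and Krt17, of which Krt5 and Krt17 are basal keratins. Among the members, Areg and Btc had r = 0.84, Ereg and Tgfa 0.94, and Areg and Nrg1 -0.76.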

How the data were processed

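The authors deposited, for 4 libraries, unnormalized UMI counts by gene and barcode, made with Cell Ranger 6.0.1 per the file headers. GRCm38 is the genome in the submitters' processing notes. The annotation release and the handling of intronic reads are not given in the sources used here. The deposited feature and barcode lists hold other text (gene identifiers, symbols and barcodes) in matrix order. Library totals ranged between 70781982 and 132660456 UMIs.

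From these, UMIs were summed per library and class over the cells kept by the bounds given above. A cell could meet 2 rules. CPM carry exact Poisson intervals, ratios of libraries exact conditional binomial intervals and shares of cells exact Clopper-Pearson intervals, all at 95% and for counting error only. With 1 library per group no test between groups was run. Class contrasts over 4 libraries used edgeR 4.0.16 (R 4.3.3) with TMM, filterByExpr, a library block and Benjamini-Hochberg adjustment at 0.05, with DESeq2 1.42.0 as an alternative, and SciPy 1.17.1 gave the intervals. Both kinds of script were tested on simulated data. Nothing says which mice or cultures the libraries came from. With the library block, those p-values measure only how much the class differences vary between these libraries, which differ in genotype and treatment.

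No doublets were removed. Scrublet (Scanpy 1.11.5) called 251 cells in Y541S giredestrant, 214 in Y541S vehicle, 17 in wild-type giredestrant and 2 in wild-type vehicle, the last too few for a working call, so an alternative left out the highest scores at 0.8% per 1000 cells. Cells within 20% of the receptor bound numbered 386 in Y541S giredestrant, 71 in Y541S vehicle, 27 in wild-type giredestrant and 60 in wild-type vehicle. Non-epithelial cells had fibroblast, endothelial or immune markers and met no class rule. Gene positions come from GENCODE (GRCm38), with promoters from RefSeq for 5 of the 9 ligands.

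The members and the pathway lists were chosen with earlier results of these data known. All 9 ligands are named, with the pathway genes called in hormone-sensing or mixed cells and genes among the 5 of most similar pattern per ligand; those of Hbegf are not reported here. The split at 3 Krt6a UMIs per 10000 was chosen after seeing the data.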

Additional observations from a re-analysis of the deposited data

Results flagged for a closer look

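The 6 flagged pairs of values set giredestrant against vehicle in Y541S beside the same comparison in wild type. In each pair the ligand moved in opposite directions, or reached 2-fold in 1 genotype and not in the other. They are not all such pairs. Nrg2 in secretory cells (-1.43 in Y541S and 0.19 in wild type) and Tgfa in basal cells (-0.047 and -1.12) are among the others. With 1 library per group the difference between genotypes was not tested. In hormone-sensing cells the relative log2 ratios of the flagged pairs were 0.74 in Y541S and -3.76 in wild type for Epgn, 1.01 and -0.37 for Tgfa, and 0.23 and -2.46 for Nrg1. In secretory cells they were -1.42 in Y541S and 2.97 in wild type for Areg, which became -0.15 and -0.49 among secretory cells that met no other rule. In basal cells they were 1.34 in Y541S and -1.69 in wild type for Epgn, and 1.03 and -1.74 for Hbegf. With the highest doublet scores left out, the basal Epgn ratio in Y541S was within 2-fold. The same setting put Nrg1 in hormone-sensing cells past 2-fold in Y541S and within it in wild type. Tgfa in Y541S was within 2-fold among hormone-sensing cells low in Krt6a.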

How the results depend on the processing

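Of 1427 values of 148 results under other settings, 1338 kept their side of the bound, 44 newly passed it, 34 no longer did, 10 reversed and 1 count moved. A change of sign counted as reversed only where either value passed the bound, so the 1338 include changes of sign. Ereg in hormone-sensing against secretory cells, for example, gave 1.60 with cells of exactly 1 class (-0.48 before), and neither value passed. Reversals came with the choice of cells, and the cause was not tested. With cells of exactly 1 class, Areg in secretory cells gave -0.49 for giredestrant in wild type (2.97 before) and 1.36 for Y541S under giredestrant (-2.10 before), Areg in secretory against basal cells -1.21 (1.18 before), and Nrg2 in hormone-sensing cells 0.078 for Y541S under giredestrant (-1.98 before) and 1.60 under vehicle (-0.29 before). With hormone-sensing and mixed cells together, giredestrant in Y541S gave 1.46 for Hbegf (-0.11 before), 1.03 for Nrg2 (-0.045 before) and 1.59 for Epgn (0.74 before). With the highest doublet scores left out, giredestrant in Y541S gave 1.12 for Nrg2 in hormone-sensing cells and -1.43 for Nrg1 in secretory cells (0.045 before). In hormone-sensing cells below 3 Krt6a UMIs per 10000, Hbegf gave -1.44 for Y541S under giredestrant (0.49 before) and Areg -1.19 for giredestrant in Y541S (-0.74 before). Without centring on the median gene Epgn gave 1.08 for giredestrant in Y541S hormone-sensing cells. Over all genes, 8064 differed between hormone-sensing and secretory cells, and 4665 to 7701 with 1 library left out, the lowest without Y541S vehicle. Depth limits Ereg, Egf and Nrg2, with few UMIs in luminal sums. No paired analysis was possible because each group of genotype and treatment has 1 library, so replicate numbers pair nothing between groups. The class contrasts, made within libraries, carried a library block, and without it Nrg2 in secretory against basal cells no longer passed (adjusted p = 0.0565).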
